A study of Mus musculus with 8 samples.

Results

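Hypothalamic neuropeptide genes encode the short signalling peptides and releasing hormones that neurons of the hypothalamus store in granules and secrete. The 10 genes described here (Agrp, Npy, Cartpt, Ghrh, Sst, Trh, Gal, Avp, Oxt and Adcyap1) were taken by name, and all 10 were found among the 27998 genes of the single-cell table and, through the gene identifiers paired with symbols there, among the 55450 genes of the bulk table. The tissue was the median eminence (ME) of mice on a C57BL/6 background in the sample labels (C57BL/6N for the single-cell mice in the study's methods), 2 months of age in those labels. The first data set was a droplet library of dissociated cells from the pooled ME of 10 wild-type female mice. The second comprised bulk RNAseq libraries of microdissected ME from 3 wild-type controls, which the labels call wt, and 4 Rax::BrafV600E mutants, which they call mut. In the mutants, tamoxifen-inducible Cre recombinase expressed from the Rax locus (Rax-CreERT2), which is active in tanycytes, switches on an oncogenic form of the kinase Braf. The study's methods place the dissection 2 months after tamoxifen, and the tissue is described there as tumor. They also state that tamoxifen was given to adult mice. The label of 2 months may therefore not be the age of the bulk mice at dissection. The labels do not give the sex of the bulk mice or the tamoxifen treatment of the controls.

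The ME lies at the floor of the third ventricle, where axons of hypothalamic neurons end on the capillaries that lead to the pituitary gland. Releasing and inhibiting hormones such as GHRH, somatostatin and TRH enter the blood there, and axons carrying vasopressin and oxytocin pass through it on their way to the posterior pituitary. The cell bodies of the adjoining arcuate nucleus include neurons that make AgRP and neuropeptide Y, which promote feeding, and neurons that make CART and POMC peptides, which restrain it. Messenger RNA is measured here, and it lies mainly in cell bodies, so a peptide delivered by axons from elsewhere need not have its transcript in the dissected tissue.

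The transcripts of Oxt and Avp resemble each other. Their genes lie on chromosome 2 of GRCm38 on opposite strands, Oxt at chr2:130576173-130577054 on the plus strand and Avp at chr2:130580620-130582554 on the minus strand. The stretches of 27 bases that encode the nonapeptides oxytocin and vasopressin, read from GENCODE M21 transcripts, differ at 5 bases, which are in capitals.
Oxt: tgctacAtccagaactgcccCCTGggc
Avp: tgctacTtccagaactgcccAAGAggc
Farther along, inside the coding sequence of both, a run of 127 bases is identical (positions 156 to 282 of the Oxt transcript and 144 to 270 of the Avp transcript).
Shared run: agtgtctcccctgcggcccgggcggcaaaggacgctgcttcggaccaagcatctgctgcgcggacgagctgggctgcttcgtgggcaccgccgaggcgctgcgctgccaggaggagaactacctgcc
It is shown because the sequence of a short bulk read from within it does not tell which gene the read came from. Of the 50-base stretches of Oxt, 15.98% occur in Avp, and 14.8% of those of Avp occur in Oxt. For Agrp, 6.76% of such stretches occur in the overlapping gene Gm5914, and 11.3% of its annotated exon bases lie in exons of Gm5914 or Ctcf. The other 7 genes share none with another gene.

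In the single-cell library, Agrp, Npy, Cartpt, Sst, Gal and Adcyap1 were highest in neuron-like cells, Oxt and Avp were carried mostly by barcodes outside that cluster, and Ghrh and Trh were almost absent. The library held 990 cells with 3284 to 57119 unique molecular identifiers (UMIs, each a tag of 1 captured transcript), and 990 distinct barcodes. Clustering without the 10 genes and the listed genes of other neuropeptides, their receptors and peptide processing gave 11 clusters. The neuron-like cluster had 49 cells, or 4.95% of all, with 3495 to 46968 UMIs and a median of 31422. Of 18 neuron markers, 16 were at least 3 times as high there as in the other cells, led by Uchl1, Stmn3 and Gap43 at 1262, 1140 and 901 CPM. Slc17a6, the vesicular glutamate transporter of hypothalamic excitatory neurons, had 0 UMIs in the 49 cells, which at the limit of 3 counts taken here for a count of 0 allows a share of up to 6.12% of cells with a UMI. As all cells came from 1 library, no test was run between clusters, and the 95% intervals (exact Poisson for levels, exact Clopper-Pearson for shares) cover counting error only.

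Droplets also capture free RNA released by broken cells, so each level was set beside that in 241 erythrocyte-like cells, which should make no neuropeptide. Haemoglobin transcripts took a median of 93.8% of their UMIs. Their median depth was 7747 UMIs. A cell was counted as beyond the free-RNA level of a gene when its UMIs were more than a Poisson distribution, at the erythrocyte-like rate and the depth of that cell, gives in all but 1 of 1000 cells. Levels are UMIs per 1000000 UMIs of the cluster (CPM).

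**Figure D1:**
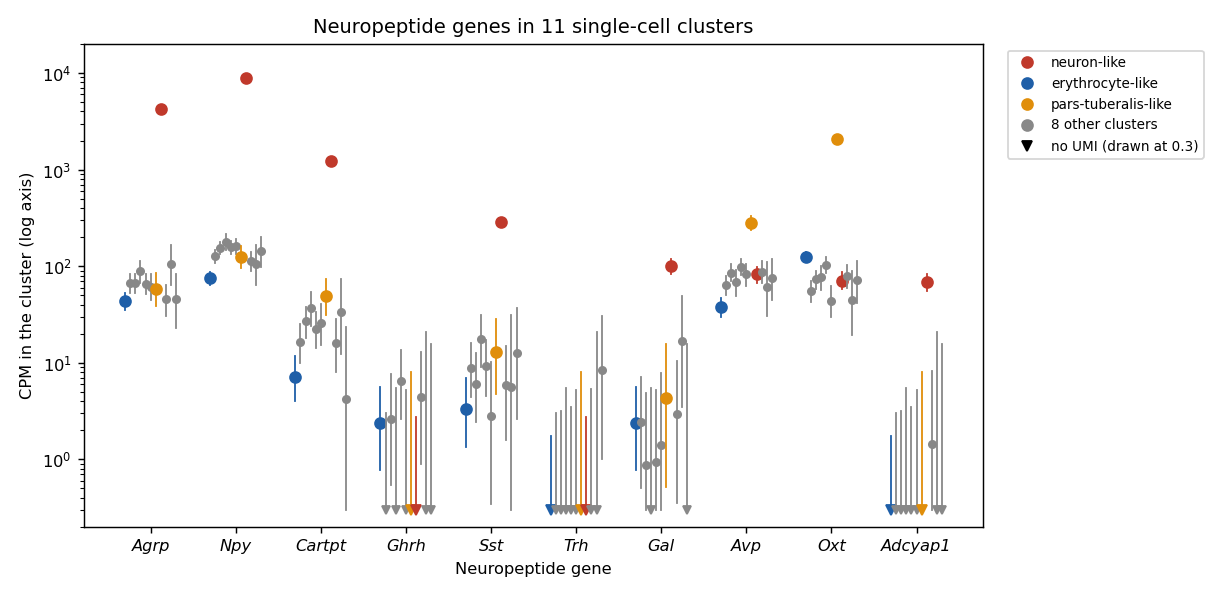
Level of each neuropeptide gene in the 11 clusters, as CPM on a log axis, with exact Poisson 95% intervals as bars. The neuron-like cluster (red) is highest for 6 of the 10 genes, from 68.1 CPM of Adcyap1 to 8913 CPM of Npy, whereas the pars-tuberalis-like cluster (orange) is highest for Avp and Oxt.

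Npy and Agrp were the most abundant of the 10 genes in neuron-like cells. Npy, which encodes the feeding-promoting peptide neuropeptide Y, reached 8913 CPM (8754 to 9074), which was 0.891% of all neuronal UMIs. The erythrocyte-like cells had 75.3 CPM and the 10 clusters other than the neuron-like one 75.3 to 178 CPM. Agrp, whose product blocks melanocortin receptors, reached 4275 CPM (4165 to 4387), against 43.4 CPM in erythrocyte-like cells and at most 106 CPM in any other cluster. Over all cells, 91.7% of Npy UMIs and 91.8% of Agrp UMIs came from the 49 neuron-like cells. The per-cell spread was wide. Npy ranged from 0 to 879 UMIs in a neuron with a median of 219.0, and Agrp from 0 to 372 with a median of 112.0.

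Cartpt, the gene of the feeding-restraining CART peptide, reached 1239 CPM (1180 to 1300) in neuron-like cells, against 7.15 CPM in erythrocyte-like cells. The clusters other than the neuron-like one had 4.196 to 49.5 CPM with a median of 24.0, so the erythrocyte-like rate is a low reference for Cartpt. For Npy, Agrp and Avp it was the lowest of those clusters, whose medians were 134.6, 63.2 and 78.9 CPM. Cartpt was less even than Agrp and Npy. The median neuron had 7.0 Cartpt UMIs, the highest 310, and 3 cells supplied 51.2% of the neuronal total. Without its highest cell, the neuronal level was 1044 CPM.

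The number of neurons with a gene beyond the free-RNA level followed the same order. It was 43 of 49 for Npy (87.8%, 75.2 to 95.4), 40 for Agrp (81.6%, 68.0 to 91.2) and 30 for Cartpt (61.2%, 46.2 to 74.8). With every cell thinned to 3000 UMIs, the number was 18 for Cartpt and 40 each for Npy and Agrp. Shares of cells with any UMI are less informative, because 41.9% of erythrocyte-like cells had an Npy UMI and 29.9% an Agrp UMI. At that depth, which left out no cell, 93.9% of neurons and 18.3% of erythrocyte-like cells had an Npy UMI. For Agrp the shares at that depth were 85.7% and 14.1%, and for Cartpt 57.1% and 1.24%. Unthinned, Cartpt had a UMI in 83.7% of neurons and 6.22% of erythrocyte-like cells, and Npy and Agrp in 98.0% and 93.9% of neurons.

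Agrp and Npy were found in the same cells. All 40 neurons beyond the free-RNA level of Agrp were also beyond that of Npy, where independent genes at these shares would give 35.1. A further 3 neurons passed for Npy but not for Agrp. Of these 3, 1 had 879 Npy UMIs, and the others had 6 each in cells of 4279 and 5318 UMIs. In those 40 neurons, Npy ranged from 30 to 552 UMIs with a median of 280.5. Across the 49 neurons, Npy was the gene with the highest correlation with Agrp among 11009 genes compared (Pearson r = 0.74 on log-normalized values), and Agrp was the highest for Npy. The next genes for Agrp were Ly6h (0.70) and Resp18 (0.66), and for Npy they were Ghr, the growth hormone receptor (0.60), and Ctsl (0.55). These cells share a library and differ in depth, so the coefficients are descriptive.

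The amount of Cartpt divided the neurons differently. Of the 40 Agrp neurons, 24 were also beyond the free-RNA level of Cartpt, but at low counts (median 10.5 UMIs, highest 100). Independent genes at these shares would give 24.5, so the overlap itself is near that of any neuron here. The other 9 neurons had at most 4 Agrp UMIs each. Cartpt was beyond the level in 6 of the 9, with 36 to 310 UMIs and a median of 186.5. The 40 Agrp neurons had 3495 to 43258 UMIs (median 31649) and the other 9 had 4279 to 46968 (median 27566), with 6 and 3 cells under 10000. The 9 cells also held the neurons with most Pomc, the precursor of melanocortin peptides, at 496, 160 and 134 UMIs, whereas no Agrp neuron had more than 8. The homeodomain gene Otp had a UMI in 35 of the 40 Agrp neurons and in 5 of the 9 others. Nkx2-1, a regulator of ventral hypothalamic fate, had one in 6 of 40 and 6 of 9. Across all 49 neurons, genes with a high correlation with Cartpt included Ptpn5 (0.59) and Nkx2-1 (0.58), and the coefficients of Cartpt with Agrp and Npy were -0.39 and -0.48.

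**Figure D2:**
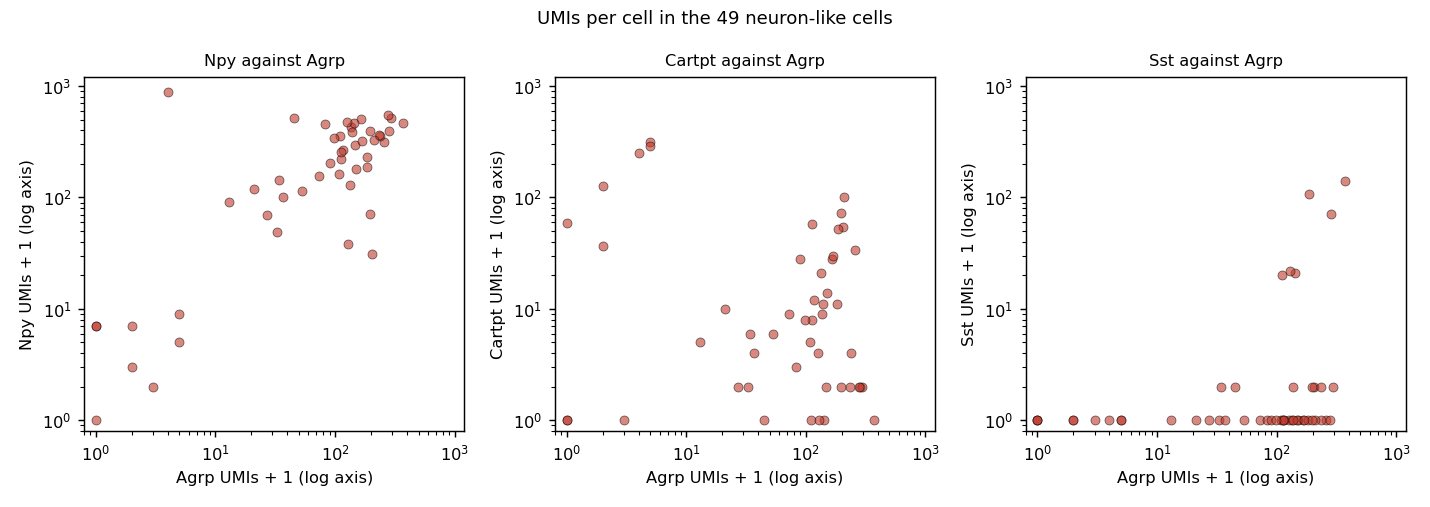
UMIs of Npy, Cartpt and Sst against Agrp in each of the 49 neuron-like cells (1 point per cell, 1 UMI added, log axes). The 40 cells with Agrp beyond the free-RNA level have 30 to 552 Npy UMIs, all beyond the level of Npy. The cells with most Cartpt (248 to 310 UMIs) have 3 or 4 Agrp UMIs. The 6 cells with 19 to 139 Sst UMIs all have Agrp beyond the free-RNA level, as do 40 of all 49 cells.

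Of the hypophysiotropic hormones, somatostatin was the only one with a clear neuronal level. Sst, whose product inhibits growth hormone release, reached 287 CPM (259 to 317) in neuron-like cells, against 3.34 CPM in erythrocyte-like cells and at most 17.7 CPM elsewhere. Only 6 neurons were beyond the free-RNA level (12.2%, 4.63 to 24.8), with 19 to 139 UMIs, and they held 98.2% of the neuronal Sst UMIs. All 6 were also Agrp and Npy neurons, where independent genes at these shares would give 4.9 and 5.3 of the 6. The cell with most Agrp (372 UMIs) was also the one with most Sst (139 UMIs). Without that cell the neuronal level of Sst was 188 CPM. Thinned, 12.2% of neurons and 0 of 241 erythrocyte-like cells had an Sst UMI, and unthinned the shares were 26.5% and 2.90%.

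Ghrh, which drives growth hormone release, had 18 UMIs in the whole library and 0 in the 49 neurons, which allows up to 2.24 CPM at the limit of 3 UMIs over the cluster. The highest cluster level was 6.53 CPM in tanycyte-like cells. A single barcode of the erythrocyte-like cluster, with 71.8% haemoglobin, held 5 of the 18 UMIs, and without it the level of that cluster fell to 0. Trh, which drives the release of thyrotropin, had 2 UMIs in all, each in a cell of the unnamed cluster 10, and 0 in neurons. Neurons that make GHRH or TRH were thus not detectable in 49 neuron-like cells.

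Oxt and Avp, the hormones of the posterior pituitary, had most of their UMIs outside the neuron-like cluster. Only 5.46% of 1739 Oxt UMIs and 13.8% of 797 Avp UMIs came from neuron-like cells. Neuronal levels were 71.1 CPM for Oxt and 82.3 CPM for Avp, set beside 124 and 37.6 CPM in erythrocyte-like cells. In the 10 other clusters, Avp ranged from 37.6 to 282 CPM, with a median of 78.9 that was close to the neuronal value. The highest level of both was in the pars-tuberalis-like cluster, 2067 CPM of Oxt (1938 to 2202) and 282 CPM of Avp (236 to 335). Oxt had a UMI in 79.6% of neurons and 27.4% of erythrocyte-like cells, but 18.4% and 11.2% after thinning. For Avp the shares were 73.5% and 26.1% before thinning and 16.3% and 9.54% after it. In neurons, 0 of 49 were beyond the free-RNA level of Oxt and 1 beyond that of Avp. For Avp the number was 0 with thinning, and 11 neurons had more Avp UMIs than any erythrocyte-like cell. The latter count takes no account of depth, whose median was 31422 UMIs in neurons and 7747 in erythrocyte-like cells.

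A few barcodes carried these high levels. Those with at least 12 UMIs of either gene numbered 5, and they held 66.2% of all Oxt UMIs and 18.4% of all Avp UMIs. In the pars-tuberalis-like cluster, 1 barcode had 870 Oxt UMIs, which was 9.67% of its transcripts, with 3 Avp UMIs. It had 1 UMI of Cga and 0 of Tshb, the thyrotropin subunit genes that mark pars tuberalis cells, and UMIs of 6 of the 18 neuron markers. Without it, Oxt in that cluster was 198 CPM, from 90 UMIs, of which 64 were in the barcode described next. Another barcode of the same cluster had 95 Avp and 64 Oxt UMIs and none of Cga or Tshb, and also had 6 neuron markers. Without it, Avp in that cluster was 78.1 CPM. Among other non-neuronal barcodes, the number of these markers varied. It was 0 in a cell with 11 Oxt UMIs, 5 in a macrophage- or microglia-like cell and 10 in a tanycyte-like cell of 57119 UMIs. Another barcode fell in the erythrocyte-like cluster with 173 Oxt UMIs and 1 Avp UMI. Its haemoglobin share was 0.299%, the lowest of the 241 and the only one under 1%, and without it the Oxt level of that cluster was 41.5 CPM. A further one, in the tanycyte-like cluster, had 41 Oxt and 32 Avp UMIs, and the last was a neuron with 16 Avp UMIs, 310 Cartpt UMIs and 134 Pomc UMIs. No other barcode had more than 11 UMIs of Oxt or 8 of Avp. Whether these barcodes are neurons, fragments of neurons or mixtures was not tested.

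**Figure D3:**
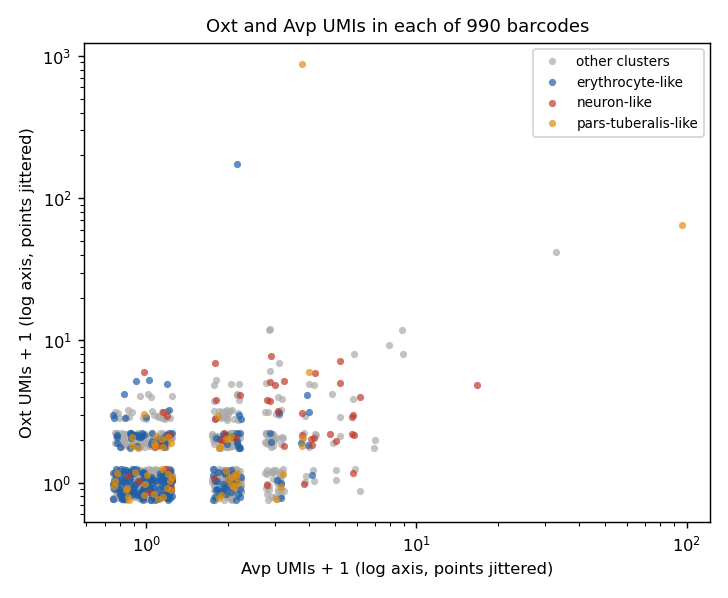
Oxt against Avp UMIs in each of the 990 barcodes (1 UMI added, jittered, log axes), coloured by cluster. The points far from the origin are the 5 barcodes with at least 12 UMIs of either gene, of which 1 is neuron-like, and the highest has 870 Oxt and 3 Avp UMIs.

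Gal and Adcyap1 were low but neuronal. Gal, which encodes galanin, reached 100.2 CPM (83.97 to 119) in neuron-like cells and 2.38 CPM in erythrocyte-like cells. It was beyond the free-RNA level in 3 neurons with 3, 47 and 69 UMIs, which held 88.8% of the neuronal total. Without the highest of them the neuronal level was 49.9 CPM. Adcyap1, the gene of the peptide PACAP, was the most exclusive of the 10, with 91 of its 92 UMIs (98.9%, 94.1 to 99.97) in neurons. Its level of 68.1 CPM was at least 47.6-fold higher than that of erythrocyte-like cells, which had 0 UMIs, taken at the limit of 3 UMIs over the cluster. Of 10 neurons beyond the free-RNA level of Adcyap1 (20.4%, 10.2 to 34.3), all were beyond that of Npy and 9 beyond that of Agrp. Independent genes at these shares would give 8.78 and 8.16, so the overlaps are near those of any neuron here. With thinning, 4 neurons instead of 10 were beyond the free-RNA level of Adcyap1. With thinning, 8.16% of neurons had a Gal UMI and 10.2% an Adcyap1 UMI, against 0.415% and 0 of erythrocyte-like cells. Before thinning, the shares were 28.6% and 24.5% in neurons and 1.66% and 0 in erythrocyte-like cells.

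Neurons mostly combined several of the 10 genes. At least 1 was beyond the free-RNA level in 48 of the 49. The number per cell was 1 in 5 neurons, 2 in 10, 3 in 24 and 4 in 9. A neuron with 879 Npy UMIs, the most of any cell, had only 3 Agrp UMIs. It also had 248 Cartpt, 47 Gal and 34 Adcyap1 UMIs, together with 89 of Penk (enkephalin), 39 of Nts (neurotensin) and 11 of Crh (corticotropin-releasing hormone). The neuron with most Pomc (496 UMIs) held the most Gal (69 UMIs) and 291 Cartpt UMIs, with 4 UMIs each of Agrp and Npy. Outside the neurons, 3 cells were beyond the free-RNA level of Agrp, 9 beyond that of Npy and 8 beyond that of Cartpt, with at most 16 Agrp, 13 Npy and 5 Cartpt UMIs in a cell.

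Genes that make, receive or control these peptides were described from lists. Of 26 other neuropeptide genes, 20 had a UMI. Of the 11 with at least 10 UMIs, 3 were highest in neurons. Pomc reached 694 CPM there but 5349 CPM in the pars-tuberalis-like cluster, Penk 77.0 CPM against 200.2 CPM in the unnamed cluster with tanycyte and ependymal markers, and Cck, a gut and brain peptide, 44.9 against 8977 CPM in the pars-tuberalis-like cluster. Besides 7 of 7 pars tuberalis markers, that cluster had 4 of 7 markers of other pituitary cells at 3 times the level of other cells. Pomc is on the latter list. In 1 barcode of the cluster there were 652 Pomc UMIs, with 2 of Cga and 0 of Tshb. Tac1, which encodes substance P, had 0 UMIs in neurons and was highest in the VLMC-like cluster (vascular and leptomeningeal cells) at 47.8 CPM.

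Of 25 receptor genes, 24 were in the table and 18 had a UMI. Of the 10 with at least 10 UMIs, 6 were highest in neurons. The most abundant in neurons were Npy2r, a receptor for neuropeptide Y, at 139.9 CPM (120.5 to 161) in 44 of 49 cells, the PACAP receptor gene Adcyap1r1 at 77.8 CPM, and Mc3r, a melanocortin receptor, and Npy5r, both at 26.2 CPM. Gpr160 was highest in NK- or T-cell-like cells (27.9 CPM), Sstr1, a somatostatin receptor, in OPC-like cells (oligodendrocyte precursor cells, 18.4 CPM), and Vipr2, with 5 UMIs in all, in NK- or T-cell-like cells (5.59 CPM). Trhr, the TRH receptor gene, was highest in the unnamed cluster with tanycyte and ependymal markers (10.4 CPM), with 0 UMIs in neurons.

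All 15 genes of peptide processing and granules were detected. Pcsk1n, which encodes an inhibitor of a prohormone convertase, was the highest in neurons at 7308 CPM and was highest there among the clusters. Scg2 and Scg5 of the granin family and secretory granules had 1052 and 593 CPM in neurons, but 2625 and 1219 CPM in the pars-tuberalis-like cluster. The granins Chga and Chgb were highest in that cluster as well (20890 and 4961 CPM). Trhde, which encodes the enzyme that degrades TRH, had 77.1 CPM in the unnamed cluster with tanycyte and ependymal markers, 59.7 CPM in tanycyte-like cells and 2.99 CPM in neurons. Trhr and Trhde were added after their values were seen. Of 17 transcription factors of neuroendocrine neurons, 16 had a UMI. Otp was highest in neurons at 383 CPM. Isl1 reached 164 CPM there and 282 CPM in the pars-tuberalis-like cluster, Tbx3 128 CPM against 257 CPM in tanycyte-like cells, and Nkx2-1 was highest in the unnamed cluster with tanycyte and ependymal markers at 269.5 CPM (26.9 CPM in neurons). Gsx1 had 0 UMIs in neurons and 116 CPM in OPC-like cells.

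The bulk libraries were used to compare the 10 genes between tumor-bearing and control ME. At an adjusted p below 0.05 (edgeR's quasi-likelihood test, Benjamini-Hochberg over all 20466 genes tested), 0 of the 10 genes passed, beside 0% of all genes, and at an adjusted p below 0.1 it was again 0 of the 10, beside 0.0684%. Ghrh, Gal, Oxt, Sst, Trh, Adcyap1 and Cartpt had a positive log2 fold change and Agrp, Npy and Avp a negative one. Their median log2 fold change was 0.40, and that of all genes tested was 0.13, with 56.7% of all genes above 0. At an unadjusted p below 0.05, Ghrh alone passed, beside 4.23% of all genes in that direction and 3.89% in the other. The quasi-likelihood test gave 1661 of 20466 genes at an unadjusted p below 0.05, and limma-voom 2306 of the same genes with 0 passing adjustment. DESeq2, run without that filter on low counts, gave 3658 of 47473 genes, and 363 passed adjustment. Its unadjusted count is thus over a larger set of genes. Its default adjustment can leave out genes by mean count, and the number kept was not recorded. In bulk tissue, fewer cells of a type and less RNA per cell cannot be told apart. The methods name 3 control and 4 mutant mice, taken here as 1 mouse per library.

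The libraries were uneven. Total counts ran from 8348930 to 13816596 in controls and from 4928456 to 10754670 in mutants, and genes with a count from 17874 to 34942 and from 25910 to 40852. Levels are CPM after TMM scaling. Of the 18 neuron markers, 14 were higher in mutants, with a median log2 fold change of 0.44. With 1 library left out, that median ran from 0.23 without mutant 2 to 0.65 without control 3. The summed level of the markers ran from 2058 to 2655 CPM in controls and from 2099 to 4307 CPM in mutants, the latter in mutant 2. All 8 OPC markers were higher (summed 268 to 595 against 828 to 2212 CPM) and all 8 oligodendrocyte markers lower (3137 to 11614 against 2148 to 3643 CPM). All 6 tested VLMC markers were lower (1207 to 2947 against 383 to 810 CPM). Of 7 pars tuberalis markers, 6 were lower (2470 to 13268 against 828 to 4202 CPM). Markers of other pituitary cells ranged from 708 to 15296 CPM in controls and from 977 to 20205 CPM in mutants. The part of these differences in the values below was not tested. Rax had 26.8, 40.9 and 143 CPM in controls and 175, 72.5, 33.2 and 48.6 CPM in mutants, and Braf 33.8, 16.8 and 13.0 CPM and 13.9, 25.2, 21.7 and 28.4 CPM. Gene counts carry no information on the engineered alleles and so do not check the labels.

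**Figure D4:**
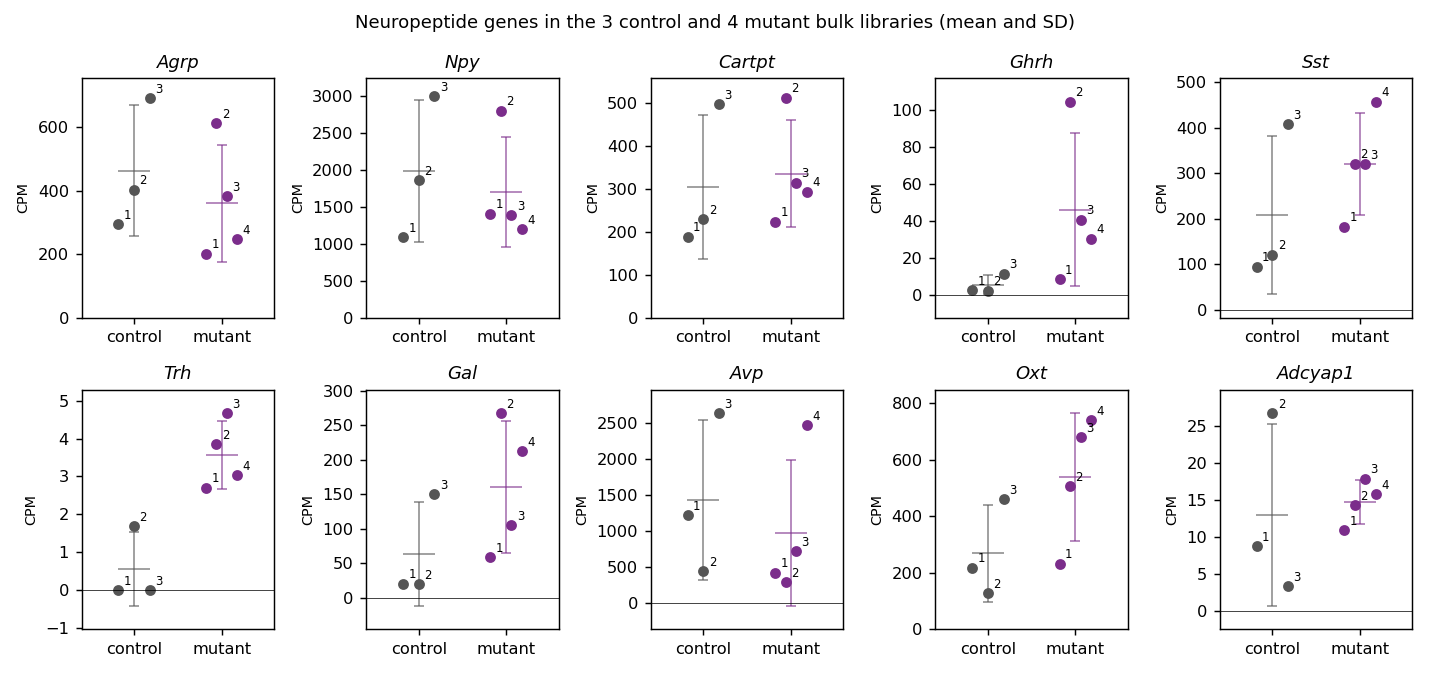
CPM of each neuropeptide gene in the 3 control and 4 mutant libraries (points, numbered by replicate) with the group mean and SD. Trh is the only gene whose groups do not overlap, 3 of 4 mutants exceed every control for Ghrh and Oxt, and control 3 is the highest control for every gene except Trh and Adcyap1.

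Ghrh had the largest difference of the 10. Its level was 2.49, 2.31 and 11.4 CPM in controls 1 to 3 and 8.39, 104, 40.6 and 30.4 CPM in mutants 1 to 4. The 3 highest libraries were mutants, but mutant 1 lay below control 3. The means were 5.39 ± 5.19 CPM (SD, n = 3) and 45.9 ± 41.2 CPM (SD, n = 4), and the log2 fold change was 3.08 ± 0.87 (SE), with an adjusted p of 0.428 (edgeR) and an unadjusted p of 0.00494 from the same test. The call depended on the fit. DESeq2 gave an adjusted p of 0.0122, and the quasi-likelihood test without a filter on low counts gave 5.04e-06, whereas over all 17 alternatives the adjusted p reached 0.9998. The fold change stayed positive in all 17, from 2.30 without mutant 2 to 4.28 without control 3. With the counts scaled to the summed neuron markers of each library it was 2.69 (adjusted p = 0.457, edgeR).

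Trh was near the detection limit, with 0, 19 and 0 reads in controls and 27, 37, 28 and 17 reads in mutants. In CPM these were 0, 1.69 and 0 against 2.70, 3.86, 4.68 and 3.04. Every mutant lay above every control, which held for 5.83% of all genes tested in that direction. The log2 fold change was 2.62 ± 1.56 (SE), with an adjusted p of 0.722 (edgeR). All the control reads came from control 2, and without that library the control group was at 0, so no fold change is given for it. Over the other alternatives that tested Trh, the lowest adjusted p was 0.327, with DESeq2.

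Sst had 94.5, 120.8 and 408 CPM in controls and 183, 321, 320.3 and 458 CPM in mutants. Control 3 lay within the mutant range. The means were 208 ± 174 and 320.5 ± 112 CPM (SD, n = 3 and n = 4), and the log2 fold change was 0.62 ± 0.51 (SE), with an adjusted p of 0.810 (edgeR). Without control 3 it was 1.58 (adjusted p = 0.251 by edgeR), and without control 1 it was 0.24, the highest and lowest with a library left out.

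The feeding genes overlapped between groups throughout. Agrp had 294, 403 and 692 CPM in controls and 202, 612, 383 and 247 CPM in mutants. Its log2 fold change was -0.36 ± 0.43 (SE; adjusted p = 0.882, edgeR), and 2 of 4 mutants were below every control. Npy had 1085, 1862 and 2995 CPM in controls and 1409, 2806, 1383 and 1198 CPM in mutants, so that all mutants fell within the control range (log2 fold change -0.22 ± 0.42, SE; adjusted p = 0.934, edgeR). Cartpt had 188, 228 and 497 CPM in controls and 223, 511, 313 and 293 CPM in mutants (0.14 ± 0.41, SE; adjusted p = 0.959, edgeR). The signs for Agrp and Npy turned without control 3, to 0.08 and 0.24. The sign for Cartpt turned without control 1 (-0.14), without mutant 2 (-0.13) and with scaling to neuron markers (-0.13), so no direction is drawn for these genes.

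The Agrp to Npy count ratio, which compares the genes within each library, was 0.271, 0.217 and 0.231 in controls and 0.143, 0.218, 0.277 and 0.206 in mutants. The groups overlapped (exact two-sided permutation test, p = 0.457).

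Oxt had 217, 126 and 460 CPM in controls and 232, 506, 679 and 741 CPM in mutants. Of the 4 mutants, 3 were above every control and mutant 1 was not. The means were 268 ± 172 and 539 ± 228 CPM (SD, n = 3 and n = 4), and the log2 fold change was 1.01 ± 0.50 (SE), with an adjusted p of 0.648 (edgeR). It ran from 0.69 without control 2 to 1.65 without control 3. Avp had 1217, 448 and 2636 CPM in controls and 422, 294, 722 and 2466 CPM in mutants. Mutants 1 and 2 were below every control, whereas mutant 4 was close to the highest control. Its log2 fold change was -0.56 ± 0.74 (SE; adjusted p = 0.896, edgeR), and it turned to 0.20 without control 3.

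The Oxt to Avp count ratio separated the groups. It was 0.178, 0.282 and 0.174 in controls and 0.549, 1.72, 0.940 and 0.3004 in mutants. All 4 mutants were above all controls, mutant 4 by little. The geometric mean of the ratio was 3.49-fold higher in mutants. The exact two-sided permutation test gave p = 0.0571, the smallest that 3 against 4 libraries allow, and 0.114 after adjustment over the 2 ratios examined. This ratio was chosen after the levels were seen, and neither p-value allows for that choice. How often ratios of other gene pairs separate the groups was not computed. How bulk reads from the shared run were counted is not given.

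Gal had 20.5, 19.5 and 150.1 CPM in controls and 59.1, 268, 105 and 212 CPM in mutants. Control 3 lay among the mutants, while the other controls lay below all 4. The log2 fold change was 1.35 ± 0.76 (SE; adjusted p = 0.699, edgeR). Without control 3 it was 3.02, with an adjusted p of 0.133 (edgeR), and without control 1 it was 0.90. Adcyap1 had 8.70, 26.7 and 3.34 CPM in controls and 10.9, 14.3, 17.9 and 15.7 CPM in mutants, so that all mutants lay within the control range (0.18 ± 0.62, SE; adjusted p = 0.965, edgeR). Its sign turned without control 1, without control 3, with scaling to neuron markers and with the number of detected genes as a covariate, and no direction is drawn.

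**Figure D5:**
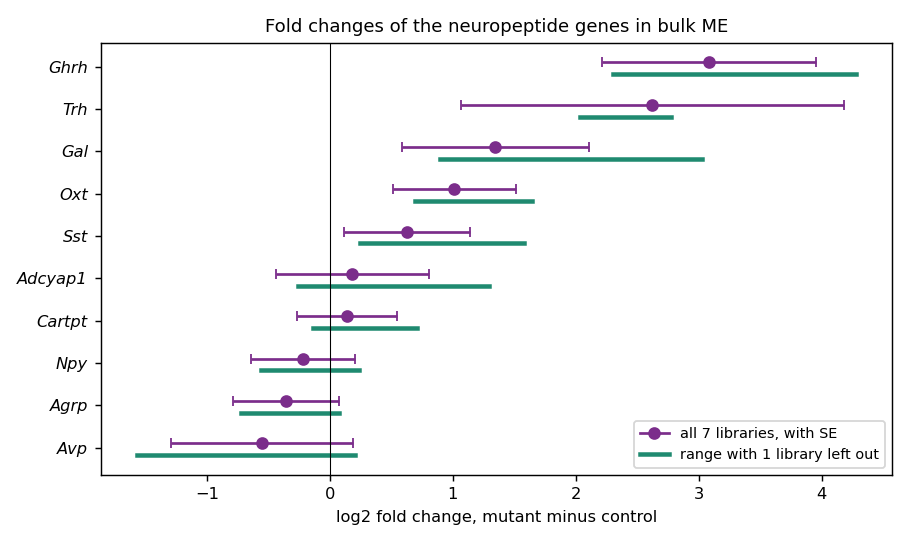
Log2 fold change of each gene, mutant minus control, with its SE (purple) and the range when 1 library is left out (green; the value of Trh without control 2, where all controls are at 0, is not drawn). Ghrh, Trh, Gal, Oxt and Sst stay above 0 in every case drawn, and the other 5 cross 0.

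Per kilobase of exon, which allows genes to be compared, the order in controls was Npy (3500 ± 1697 CPM per kilobase, SD), Avp (2485 ± 1924), Oxt (498 ± 321), Agrp (457 ± 203), Sst (288 ± 242), Cartpt (238 ± 132), Gal (80.4 ± 95.3), Ghrh (8.07 ± 7.77), Adcyap1 (3.42 ± 3.25) and Trh (0.406 ± 0.704). Ranges over the 3 controls overlapped between every pair of neighbours except Gal and Ghrh. Lengths count all annotated exons, which for Agrp come to 1.013 kilobases over 3 transcripts. The place of Agrp below Oxt in controls depends on that length. In mutants the order was the same except that Sst (444 ± 156) stood above Agrp (356 ± 182), with overlapping ranges. Ranges of neighbours in mutants overlapped except between Ghrh (68.7 ± 61.7) and Adcyap1 (3.89 ± 0.776). Avp and Oxt thus ranked next after Npy in the bulk tissue, but in neuron-like cells Npy, Agrp, Cartpt and Sst all had a higher CPM than either. Those cells are only a part of the tissue, and their CPM is not per kilobase. Over all cells of the single-cell library, Npy had 1320 CPM, Agrp 632, Cartpt 186, Oxt 177, Avp 80.9 and Sst 45.3. Together the 10 genes took 0.299% to 0.664% of bulk counts in controls and 0.256% to 0.643% in mutants, and 1.504% of the UMIs of neuron-like cells.

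Over the lists of other neuropeptides, receptors, processing and granule genes, transcription factors and neuron markers, 80 genes were tested. The groups did not overlap for 10 of them with mutants higher and for 6 with mutants lower (12.5% and 7.5%), beside 5.83% and 3.18% of all genes. The lists were chosen with earlier results known, and no test was run on them. Of 26 other neuropeptide genes, 12 were tested, 7 with a positive and 5 with a negative fold change (median 0.25), and none passed adjustment by edgeR. Among them 2 had an unadjusted p below 0.05 in each direction, beside 4.23% of all genes upward and 3.89% downward. Nts had 1.58, 0 and 0.428 CPM in controls and 16.7, 1.98, 11.4 and 20.4 CPM in mutants (log2 fold change 4.24 ± 1.22, SE; adjusted p = 0.430, edgeR). Nmb, which encodes neuromedin B, had 58.2, 17.9 and 11.6 CPM and then 8.89, 11.3, 10.7 and 4.47 CPM (-1.72 ± 0.58, SE; adjusted p = 0.491, edgeR). In neither did the groups overlap, and 1 tested gene of the list separated upward and 2 downward.

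Of 25 receptor genes, 20 were tested, 13 of them higher and 7 lower (median log2 fold change 0.69). At an unadjusted p below 0.05, 3 passed upward and 0 downward, beside 4.23% and 3.89% of all genes. These 3 separated upward, and 1 other tested gene of the list separated downward, beside 5.83% and 3.18% of all genes. The somatostatin receptor genes Sstr1 and Sstr2 had 2.49 to 6.66 and 0.0856 to 13.1 CPM in controls and 12.7 to 18.1 and 18.8 to 43.1 CPM in mutants (log2 fold changes 1.64 ± 0.52 and 2.16 ± 0.94, SE; adjusted p = 0.445 and 0.597, edgeR). The galanin receptor gene Galr2 had 1.92, 2.75 and 16.4 CPM in controls and 19.8 to 34.9 CPM in mutants (2.00 ± 0.71, SE; adjusted p = 0.514, edgeR). In single cells, Sstr1 was highest in OPC-like cells (18.4 CPM), with 6.73 CPM in neurons. Sstr2 was highest in the unnamed cluster with tanycyte and ependymal markers (6.07 CPM), and Galr2 had 2 UMIs in all. OPC markers were higher in the mutants as given above, and any link to these receptor values was not tested.

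All 15 processing and granule genes were tested, 6 of them higher and 9 lower (median -0.20). At an unadjusted p below 0.05, 1 passed upward and 5 downward, beside 4.23% and 3.89% of all genes. The groups separated upward for 1 and downward for 2, beside 5.83% and 3.18% of all genes. Chgb had 1550, 991 and 880 CPM in controls and 538, 478, 559 and 251 CPM in mutants (-1.32 ± 0.35, SE; adjusted p = 0.411, edgeR). Its single-cell level was 4961 CPM in the pars-tuberalis-like cluster and 211 CPM in neurons. Cadps2, a gene of dense-core vesicle priming, ran from 23.3 to 40.3 CPM in controls and from 16.3 to 17.7 CPM in mutants (-0.78 ± 0.34, SE; adjusted p = 0.599, edgeR). Vgf, a granule protein and peptide precursor that had 197 CPM in neurons and at most 4.196 CPM in any other cluster, had 29.9, 36.1 and 16.3 CPM in controls and 42.3, 253, 120 and 75.4 CPM in mutants (2.16 ± 0.58, SE; adjusted p = 0.411, edgeR).

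Of 17 transcription factors, 15 were tested, 13 higher and 2 lower (median 0.52). At an unadjusted p below 0.05, 4 passed upward and 1 downward, beside 4.23% and 3.89% of all genes. The groups separated upward for 3 and downward for 1, beside 5.83% and 3.18% of all genes. Isl1 had 82.5, 68.4 and 119 CPM in controls and 51.7, 67.8, 43.9 and 35.4 CPM in mutants (-0.85 ± 0.32, SE; adjusted p = 0.526, edgeR). Gsx1, a homeodomain factor needed for GHRH neurons to form, had 0, 1.87 and 0.0856 CPM in controls and 17.3, 11.6, 8.85 and 25.6 CPM in mutants (4.55 ± 1.16, SE; adjusted p = 0.384, edgeR). In single cells Gsx1 was found in OPC-like cells and not in neurons. Dlx2 had 0.226, 0 and 0 CPM in controls and 2.098 to 14.6 CPM in mutants. Of the 18 neuron markers, Syt1 and Slc17a6 separated upward and 0 downward, beside 5.83% and 3.18% of all genes. Their levels were 16.9 to 44.6 against 50.04 to 104 CPM and 3.55 to 7.12 against 8.89 to 29.9 CPM (adjusted p = 0.503 and 0.491, edgeR).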

How the data were processed

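The single-cell library was prepared by the authors from papain-dissociated ME with a 10x 3' kit, counted with Cell Ranger 2.0.1 according to the submitters' processing notes, and deposited as raw UMI counts per gene and cell for 990 cells. For bulk RNAseq, the authors reverse transcribed Trizol-extracted RNA by Smart-seq2 and deposited raw read counts per Ensembl gene for 7 libraries. The processing notes name GRCm38 and DESeq2, and the aligner and counter of the bulk reads are not given in the sources used here. No column was left unused.

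Samples were grouped by their labels. The genes and lists were chosen with earlier results of these data known. The quasi-likelihood test of edgeR 4.0.16 (R 4.3.3) was run on the bulk counts after TMM scaling and filterByExpr, with a threshold of 0.05 on the adjusted p. Named are the 10 genes, Rax and Braf. From each related list, bulk genes named are up to 3 per direction with the largest fold change among those with an unadjusted p below 0.05 and groups that do not overlap. Single-cell genes named are the 3 highest in neurons and up to 3 highest in another named cluster. UMI counts were clustered in Seurat 5.3.0 (scale factor 10000, means 0.02 to 8, dispersion at least 0.5, 20 components, resolution 0.8), leaving 4817 of 4844 variable genes after the neuropeptide, receptor and processing genes were removed. A cluster was named from at least 3 markers at 3 times the level of other cells. Scrublet in scanpy 1.11.5 called 3 doublets (0.303%), none in neurons, and they were kept. Gene lengths and sequences came from GENCODE M21. Precision follows depth: 3 reads are 0.217 to 0.609 CPM in a bulk library, and 3 UMIs are 2.24 CPM in the neuron-like cluster. On data simulated for 20466 genes of the bulk comparison, 64 of 200 genes changed 4-fold were recovered (32%), with 4 unchanged genes called. Alternatives were limma-voom (limma 3.58.1), DESeq2 1.42.0, other scalings and filters, a replicate block, each library left out, other clusterings, thinning, and 3 chosen after seeing the data. The main fit did not treat replicate numbers as pairs. Some genes that the naming rule selects are not reported here.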

Additional observations from a re-analysis of the deposited data

Results flagged for a closer look

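In the mutant group of 4 libraries, 2 of the 31 values examined held a sample far from the others by Dixon's 95% criterion, and chance marks about 1 in 20 groups. Npy in mutant 2 was 2806 CPM, and the other mutants had 1198 to 1409 CPM. The gap divided by the range was 0.869, above the critical value. The summed level of the neuron markers was also set apart in mutant 2, at 4307 CPM against 2099 to 2463 CPM in the other mutants (0.835). Per 1000 neuron-marker counts, Npy in mutant 2 was 651, within the 486 to 672 of the other mutants.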

How the results depend on the processing

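The count of all genes past the threshold was 0, and became 14 at an adjusted p below 0.1, 363 with DESeq2, 1 with median-ratio factors, 1 with upper-quartile scaling, 3 with library sizes alone, 240 without a filter on low counts, 13 with at least 10 counts in every library, 4 with scaling to neuron markers and 1 with detected genes as a covariate. With 1 library left out it ran from 0 to 45, with 45 without control 1 and 16 without control 3. Of the 10 neuropeptide genes, 1 passed with DESeq2 and 1 without a filter (Ghrh in each), and 0 in every leave-one-out fit. The DESeq2 fit and the fit without a filter covered more genes. The 240 are of 47682 genes, beside 20466 in the main fit. DESeq2 gave an unadjusted p for 47473 genes, but its adjustment can leave out genes by mean count, and the number kept was not recorded. The related lists and the cell type marker lists were counted together here. Of their genes, 1 passed at an adjusted p below 0.1, and it was a VLMC marker. The number was 19 with DESeq2, 30 without a filter and 1 with at least 10 counts. With a library left out it ran from 0 to 6, with 6 without control 1 and 2 without control 3. The cause of these changes was not tested.

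Of 169 refitted fold changes of the 10 genes, 11 changed sign. With a library left out, Agrp ran from -0.73 to 0.0751, Npy from -0.56 to 0.24, Cartpt from -0.14 to 0.71, Avp from -1.57 to 0.20 and Adcyap1 from -0.26 to 1.29. With detected genes as a covariate, Npy was 0.43 and Adcyap1 -0.0355, and with scaling to neuron markers Cartpt was -0.13 and Adcyap1 -0.14. Trh was not tested when 10 counts were required of each library. The median log2 fold change of all genes was 0.13, and became 0.63 with DESeq2 and 0.59 without a filter, both over more genes. It was 0.35 with limma-voom, 0.25 with library sizes and -0.14 with scaling to neuron markers. The last and the covariate were chosen after seeing the data.

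Same-numbered libraries had correlations of -0.454, -0.00760 and -0.227 between their deviations, none of them positive. Libraries with different numbers were not compared, so these values do not settle whether the numbers pair the libraries. With the replicate block, the fit called 0 genes of all, 0 of the 10 and 0 of the related and cell type marker lists.

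The count of 6 neuropeptide genes highest in the neuron-like cluster held under every clustering tried and under thinning, all with 49 neuron-like cells. Subtracting the erythrocyte-like CPM put neuronal Oxt at -52.8, Ghrh at -2.38 and Avp at 44.6 CPM, the last from 82.3 CPM. The negative values for Oxt and Ghrh rested on 1 erythrocyte-like barcode for each gene. Without that barcode the erythrocyte-like levels were 41.5 CPM of Oxt and 0 of Ghrh, and the neuronal levels were 71.1 and 0 CPM. With thinning, the neurons beyond the free-RNA level fell from 30 to 18 for Cartpt, from 10 to 4 for Adcyap1 and from 1 to 0 for Avp. Avp had 11 under the rule of more UMIs than any erythrocyte-like cell, which takes no account of depth. Without the highest barcode of that cluster, also chosen after seeing the data, 4 neurons instead of 3 were beyond the free-RNA level of Gal and 11 cells instead of 7 beyond that of Oxt.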
